A study of Mus musculus with 6 samples.

Results

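A family of 10 genes of neuronal calcium-binding proteins (Pvalb, Calb1, Calb2, Necab1, Necab2, Necab3, Hpca, Hpcal1, Hpcal4 and Vsnl1) were followed across 3 regions of the mouse brain, namely the parvafox nucleus, cerebral cortex and hippocampus. The 10 genes were chosen by family, with earlier results of these data known, out of 22180 genes that the array measures with a probe set of a single gene symbol. A probe set is a group of short array sequences that together read 1 gene. Each of the 10 genes had exactly 1 such probe set, and its gene ID carried the same symbol in RefSeq. The parvafox nucleus is a slender cluster of parvalbumin neurons beside the fornix in the lateral hypothalamus.

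All values were read from 6 Affymetrix Mouse Gene 2.0 ST arrays, 1 per region and animal, of a pair of untreated adult animals of the C57BL/6 strain called mouse 355 and mouse 511. The strain is given by the labels for 5 of the arrays and by the design for the nucleus of mouse 511. Tissue was cut out by laser from frozen sections and its RNA was amplified before hybridization. The nucleus was found on neighboring sections by a lectin that binds perineuronal nets, the cortex was piriform and entorhinal, and the hippocampal piece came from CA2 and CA3. The study calls its choice of comparison regions arbitrary, noting that both hold parvalbumin interneurons, and the animals were those of 6 whose RNA was best preserved. A captured piece holds all cells in its outline, so fewer cells of a type and less RNA per cell cannot be told apart. Signals below are RMA values on the log2 scale, where a difference of 1 is 2-fold, and signals of different probe sets are not set against each other.

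Neurons admit calcium at each action potential, and proteins with EF-hands, small loops that hold a calcium ion, shape what follows. Buffers such as parvalbumin, calbindin and calretinin take up free calcium and set how high and how long it stays raised. Sensors such as hippocalcin and the visinin-like proteins change shape when calcium binds, attach to membranes and act on channels, receptors and enzymes. The NECAB proteins carry an EF-hand together with a domain related to bacterial monooxygenases. Because these proteins mark separate classes of neurons, they have long served as labels of cell types in cortex, hippocampus and hypothalamus.

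The markers of other neurons set the regions apart and also set the arrays of 1 region apart. Slc17a6, the glutamate transporter of subcortical neurons, read 10.18 and 9.53 in nucleus of mice 355 and 511, 8.24 and 6.24 in cortex and 4.29 and 6.28 in hippocampus. Slc17a7, the transporter of cortical and hippocampal principal neurons, read 4.13 and 3.27 in the nucleus and between 9.51 and 9.96 on the other arrays. Foxb1, the transcription factor that shares the name of the nucleus, read 5.82 and 4.15 in the nucleus and at most 3.84 elsewhere. In the cortex, Neurod6 of principal neurons read 5.27 in mouse 355 against 9.28 in mouse 511, and the dopamine receptor gene Drd1 of striatal neurons read 3.79 against 8.33. Over the 6 striatal markers measured of 9, the log2 of the summed signal was 8.81 in the cortex of mouse 355, 11.49 in that of mouse 511 and between 8.15 and 10.01 on the other arrays. Over the 8 brainstem projection markers measured of 9 it was 9.74 in the cortex of mouse 355, 8.52 in that of mouse 511 and between 8.59 and 9.67 elsewhere. The cortex arrays thus differed in these markers, and the part of these other cells in the results below was not tested.

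The upstream sequence is shown for 3 of the genes, chosen with their values known. Pvalb was taken because the study describes the nucleus by its parvalbumin neurons. The related genes Hpcal1 and Hpcal4 were taken because their regional orders differed. RefSeq windows of assembly GRCm38.p6 were matched for 7 of the 10 genes (Pvalb, Necab2, Necab3, Hpca, Hpcal1, Hpcal4 and Vsnl1). Shown are the 120 bases before the start, 5′ to 3′ on the gene's own strand, at chr15:78206401-78206520 (minus strand) for Pvalb, chr12:17690689-17690808 (plus strand) for Hpcal1 and chr4:123183384-123183503 (plus strand) for Hpcal4, with matches to the motifs searched in capitals.
Pvalb: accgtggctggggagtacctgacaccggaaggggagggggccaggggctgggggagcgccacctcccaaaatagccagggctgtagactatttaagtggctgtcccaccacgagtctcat
Hpcal1: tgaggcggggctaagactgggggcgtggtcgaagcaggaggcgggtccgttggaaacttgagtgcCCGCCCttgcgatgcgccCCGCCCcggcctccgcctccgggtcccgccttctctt
Hpcal4: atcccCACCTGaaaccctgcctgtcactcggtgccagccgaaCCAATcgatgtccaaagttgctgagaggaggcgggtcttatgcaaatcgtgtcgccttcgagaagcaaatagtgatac
Motifs were searched over the 250 bases before the start on both strands, and each share given is of the 32851 RefSeq promoter windows of that length. The TATA box (TATAAA) occurs in 12.4% of them. The GC box, searched as GGGCGG, occurs in 32.7%. The share is 33.8% for the CCAAT box, named for its letters. For the E-box, searched as CANNTG, it is 66.2%. The cAMP response element, searched by its core TGACG, is found in 17.8%. The Pvalb window held none of these 5 motifs. The Hpcal1 window held GC boxes that began 146, 55 and 37 bases before the start, and the last pair stands in the stretch shown. The Hpcal4 window held a CCAAT box 78 bases and an E-box 115 bases before the start, both in the stretch shown, and another E-box at 225 and GC boxes at 173 and 165 bases. These matches describe letters only, and binding at them was not measured here.

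**Figure D1:**
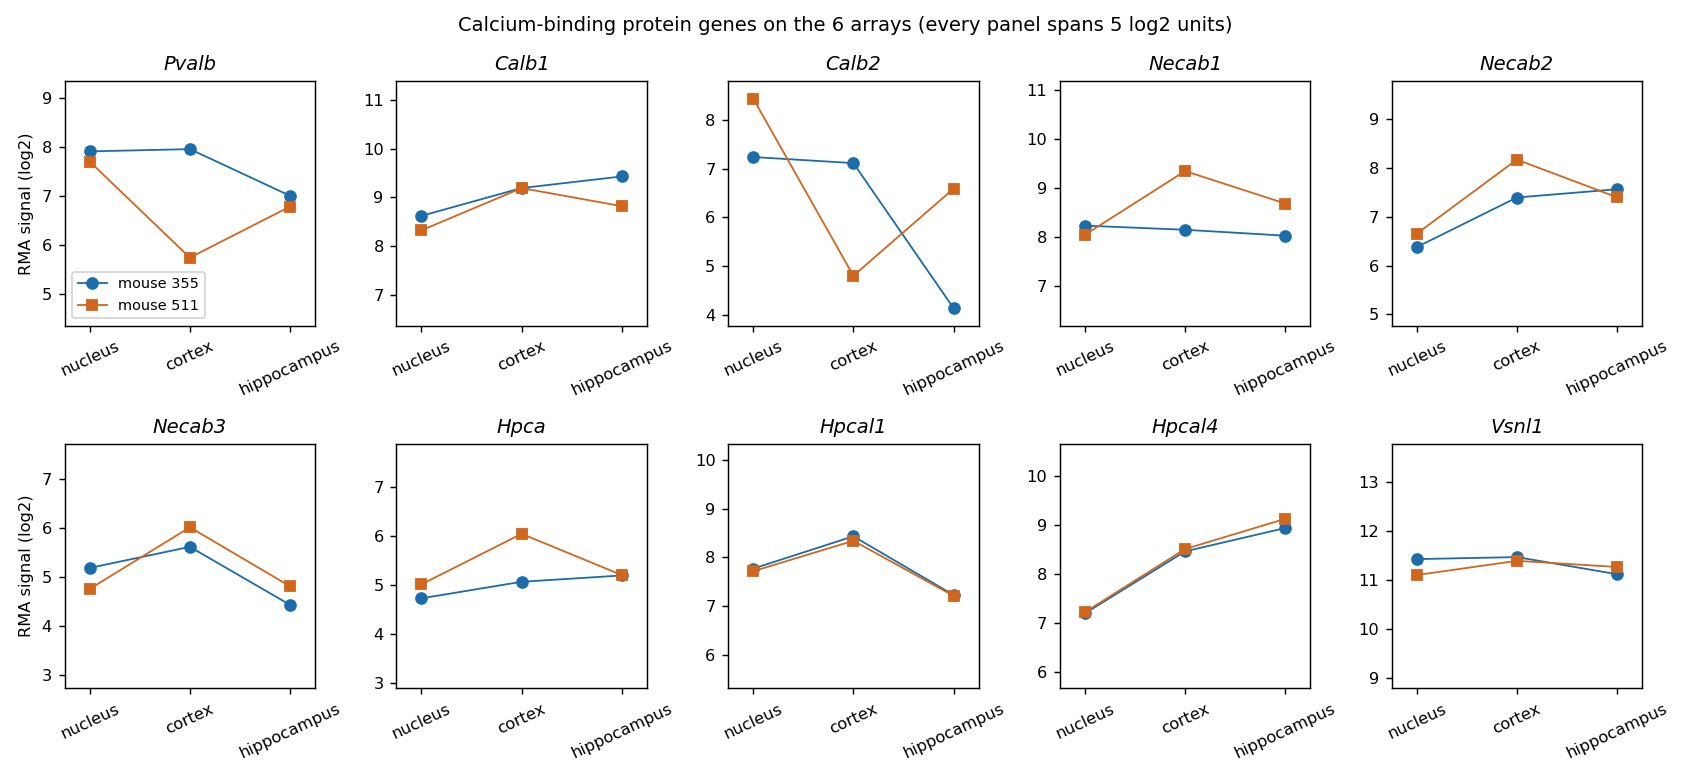
RMA signal (log2) of each of the 10 calcium-binding protein genes in nucleus, cortex and hippocampus, with 1 point per array, circles for mouse 355 and squares for mouse 511, and lines joining the regions of 1 mouse. Every panel spans the same number of log2 units. The lines of the mice run together for Hpcal1 and Hpcal4, cross for Calb2, and part in the cortex for Pvalb.

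Pvalb encodes a buffer of fast-firing inhibitory interneurons and of the glutamatergic neurons of the parvafox nucleus. Its signal in mice 355 and 511 was 7.91 and 7.70 for the nucleus, 7.95 and 5.74 for the cortex and 7.00 and 6.78 for the hippocampus. The nucleus arrays lay above both hippocampus arrays, whereas the cortex of mouse 355 was level with the nucleus and the cortex of mouse 511 was the lowest array of all. The nucleus exceeded the hippocampus 1.88-fold in mouse 355 and 1.89-fold in mouse 511, a log2 difference of 0.91 (SE 0.56, 95% interval -0.55 to 2.37, adjusted p = 0.686 from limma). With an array left out this ran from 0.41 (without the nucleus of mouse 511) to 1.42 (without the nucleus of mouse 355). Against the cortex the log2 difference was -0.05 in mouse 355 and 1.96 in mouse 511, with a mean of 0.96 (SE 0.56, 95% interval -0.50 to 2.42, adjusted p = 0.740 from limma), and it was -0.04 without the cortex of mouse 511. The mice were 2.22 log2 units apart in the cortex, 0.21 in the nucleus and 0.22 in the hippocampus.

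Of the 16 genes measured from a list that parvalbumin neurons share, 12 were lower in the cortex of mouse 511 than in that of mouse 355, as Pvalb was, and 4 were higher (Kcnc2, Scn8a, Scn4b and Ppargc1a). In the nucleus 15 of the 16 were lower in mouse 511, and in the hippocampus 5 were. Lists of other cells differed between the mice too. In the nucleus 12 of 12 GABAergic and 9 of 9 hypothalamic markers were lower in mouse 511, but 2 of 8 astrocyte markers. In the cortex 8 of 8 brainstem markers were lower, but 1 of 8 principal neuron markers. Nefh and Nefm stand both in the brainstem list and in that of parvalbumin neurons. The share of all probe sets lower in mouse 511 was not counted. Vamp1, a synaptic vesicle protein of fast-releasing terminals, read 8.70 and 8.23 in nucleus, 8.73 and 6.72 in cortex and 6.47 and 5.92 in hippocampus. Nefh, the heavy neurofilament of large axons, read 7.22 and 6.74 in nucleus, 7.57 and 5.77 in cortex and 6.09 and 6.45 in hippocampus. In both genes, as in Pvalb, the cortex of mouse 355 was the highest array and the cortex of mouse 511 was well below it. Scn4b, a sodium channel subunit, went the other way, with 6.20 and 6.96 on the cortex arrays of mice 355 and 511. Glra1 encodes a glycine receptor subunit of brainstem and spinal neurons, and the study also reports it in the parvafox nucleus. It read 5.62 and 4.90 in nucleus, 6.55 and 3.97 in cortex and 3.67 and 3.50 in hippocampus of mice 355 and 511. Markers of muscle, the other main site of parvalbumin, had a log2 summed signal between 6.29 and 7.47 on the 6 arrays over 5 genes. The highest sum was in the cortex of mouse 511, where Acta1 (7.02) and Ckm (4.33) were at their highest and Myh2 (3.02), Myh4 (2.16) and Tnnt3 (3.92) at their lowest, and the part of muscle in the Pvalb signal was not tested.

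**Figure D2:**
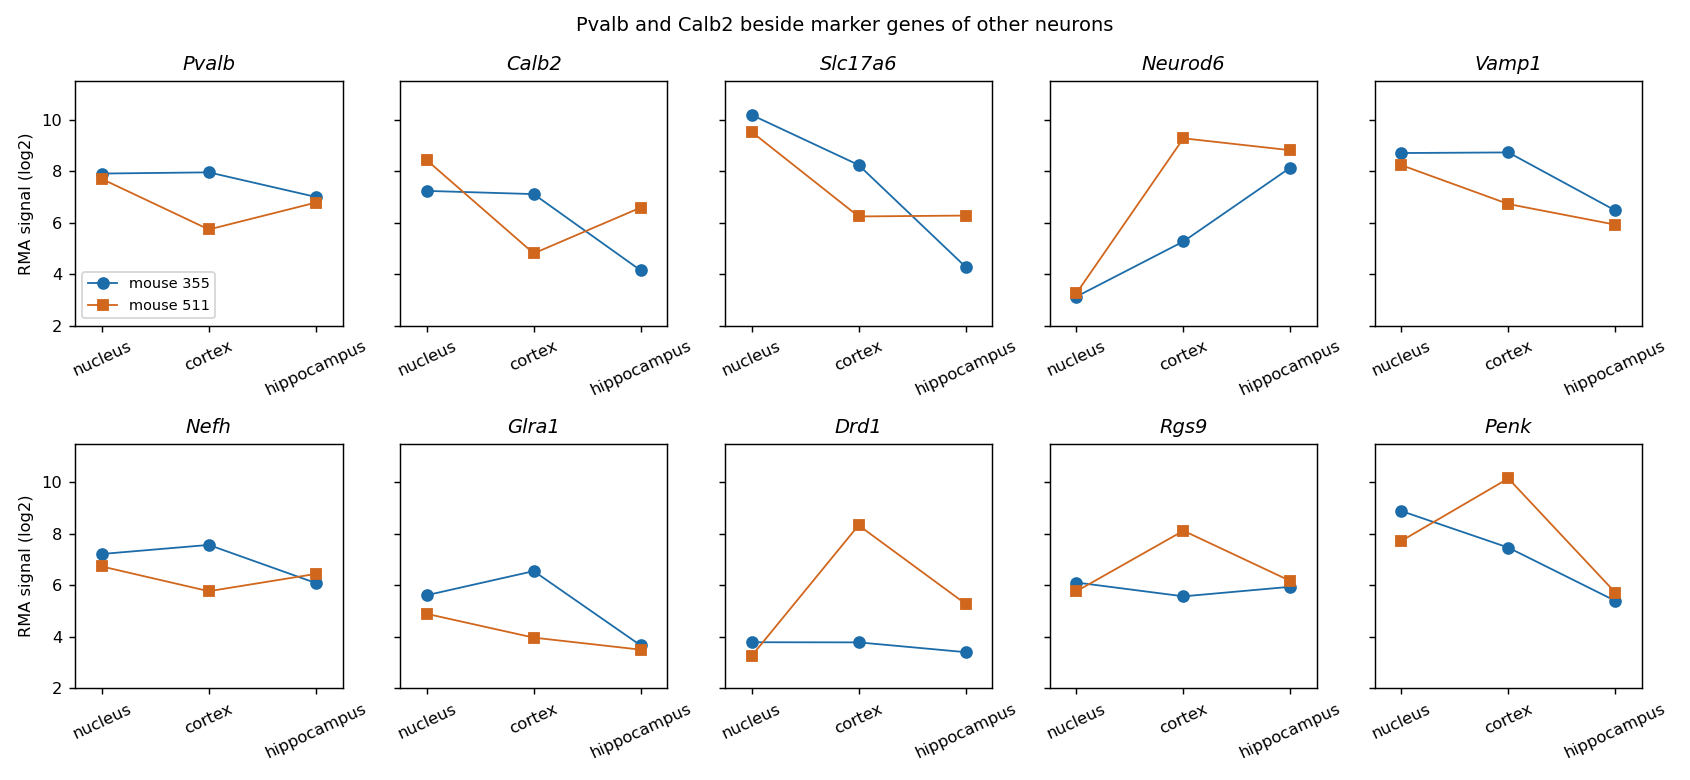
RMA signal (log2, 1 axis range for all panels) of Pvalb and Calb2 beside marker genes of subcortical, principal, brainstem and striatal neurons, with 1 point per array, circles for mouse 355 and squares for mouse 511. In the cortex, Pvalb, Slc17a6, Vamp1, Nefh and Glra1 were higher in mouse 355, and Neurod6, Drd1, Rgs9 and Penk were higher in mouse 511.

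Calb2 spread most widely of the 10 genes, over 4.28 log2 units, which is its range over the 6 arrays. It encodes calretinin, a buffer of a class of cortical interneurons and of many hypothalamic and thalamic neurons. Its signal was 7.23 and 8.43 in nucleus of mice 355 and 511, 7.11 and 4.81 in cortex and 4.15 and 6.59 in hippocampus. Both nucleus arrays lay above all 4 others, while the order of cortex and hippocampus was opposite in the mice. The nucleus was 8.50-fold (mouse 355) and 3.58-fold (mouse 511) higher than the hippocampus (mean log2 difference 2.46, SE 1.14, 95% interval -0.51 to 5.44, adjusted p = 0.587 from limma), and the log2 difference was 0.97 without the hippocampus of mouse 355 and 3.96 without that of mouse 511. Against the cortex it was 1.09-fold (mouse 355) and 12.3-fold (mouse 511) higher (mean log2 difference 1.87, SE 1.14, 95% interval -1.10 to 4.85, adjusted p = 0.748 from limma), and without the cortex of mouse 511 the log2 difference was -0.19. Slc17a6 went the same way within each region but the nucleus, with 8.24 against 6.24 in the cortex and 4.29 against 6.28 in the hippocampus, and the neuropeptide gene Adcyap1 read 3.60 and 5.77 in the hippocampus. Of the 9 subcortical and hypothalamic markers measured, 6 were higher in the hippocampus of mouse 511 than of mouse 355 and 3 were lower (Pmch, Lhx1 and Sim1). All 9 were lower in the cortex of mouse 511, and all 9 in its nucleus, where Calb2 was higher. The share of all probe sets that went each way was not counted. In the hippocampus some of the 9 read below the array medians of 3.67 and 3.54, among them Hcrt (3.06 and 3.25) and Pmch (3.14 and 2.96). The part of subcortical tissue in the Calb2 signal of cortex and hippocampus was not tested.

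Calb1 had its lowest signal in the nucleus. It encodes calbindin, a fast buffer of many principal cells and interneurons. Its signal was 8.62 and 8.33 in the nucleus of mice 355 and 511, 9.19 on both cortex arrays, and 9.43 and 8.82 in the hippocampus. No array of the nucleus reached the lowest array of cortex or hippocampus, and the cortex and hippocampus arrays overlapped. The nucleus was 1.48-fold and 1.82-fold lower than the cortex in mice 355 and 511 (log2 difference -0.72, SE 0.23, unadjusted p = 0.0274, adjusted p = 0.584 from limma). It was 1.75-fold and 1.41-fold lower than the hippocampus (log2 difference -0.65, SE 0.23, unadjusted p = 0.0379, adjusted p = 0.494 from limma). Cortex and hippocampus differed by 0.07 on the log2 scale (95% interval -0.53 to 0.66), less than the spread between the hippocampus arrays.

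The NECAB genes differed in how far the regions stood apart. Necab2, whose product binds the metabotropic glutamate receptor mGluR5 and an adenosine receptor, read 6.38 and 6.65 in nucleus of mice 355 and 511, 7.39 and 8.16 in cortex and 7.56 and 7.39 in hippocampus. The nucleus was below every cortex and hippocampus array. It was 2.02-fold and 2.86-fold lower than the cortex (log2 difference -1.26, SE 0.28, unadjusted p = 0.00718, adjusted p = 0.495 from limma) and 2.27-fold and 1.67-fold lower than the hippocampus (log2 difference -0.96, SE 0.28, unadjusted p = 0.0201, adjusted p = 0.422 from limma). Necab2 therefore passed a 2-fold difference in 3 of the 4 within-mouse comparisons of the nucleus, the exception being the hippocampus of mouse 511.

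Necab3, which in mammalian cells binds a neuronal adaptor of the amyloid precursor protein, stood out between cortex and hippocampus. It read 5.18 and 4.76 in nucleus, 5.61 and 6.01 in cortex and 4.43 and 4.81 in hippocampus of mice 355 and 511. The cortex arrays were above all others, and nucleus and hippocampus overlapped. The cortex was 2.27-fold (mouse 355) and 2.31-fold (mouse 511) higher than the hippocampus (log2 difference 1.20, SE 0.28, unadjusted p = 0.00905, adjusted p = 0.980 from limma). The nucleus was 1.35-fold and 2.39-fold lower than the cortex (log2 difference -0.84, SE 0.28, unadjusted p = 0.0320, adjusted p = 0.593 from limma).

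Necab1, which marks interneurons and layer-specific neurons of the cortex, showed no regional order beyond the spread of the mice. It read 8.23 and 8.05 in nucleus, 8.15 and 9.35 in cortex and 8.03 and 8.68 in hippocampus. The largest difference among the arrays of mouse 355 was 0.20 log2 units, and the cortex of mouse 511 was the highest array. The log2 difference of nucleus and cortex was 0.08 in mouse 355 and -1.30 in mouse 511 (adjusted p = 0.747 from limma). The log2 summed signal of the 6 striatal markers was highest in the cortex of mouse 511, at 11.49, but the other array with a high Necab1, the hippocampus of mouse 511, had a sum of 8.50, below the 9.98 and 10.01 of the nucleus arrays. Among these markers Drd1 was at 8.33 and 5.28 on the cortex and hippocampus arrays of mouse 511 and between 3.26 and 3.79 on the other 4, whereas Drd2 had its lowest value, 5.41, in the hippocampus of mouse 511. The part of striatal cells in the Necab1 signal was not tested.

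Among the membrane-bound sensors, Hpcal4 had its lowest signal in the nucleus. It encodes a visinin-like protein that modulates voltage-gated calcium channels. Its signal was 7.19 and 7.22 in nucleus of mice 355 and 511, 8.46 and 8.51 in cortex and 8.94 and 9.12 in hippocampus. The regions did not overlap, and the mice differed by 0.19 log2 units at most, in the hippocampus. The nucleus was 2.41-fold and 2.44-fold lower than the cortex (log2 difference -1.28, SE 0.19, 95% interval -1.76 to -0.79, unadjusted p = 0.00119, adjusted p = 0.353 from limma). It was 3.35-fold and 3.75-fold lower than the hippocampus (log2 difference -1.82, SE 0.19, 95% interval -2.31 to -1.34, unadjusted p = 0.000239, adjusted p = 0.161 from limma). The cortex lay 0.55 log2 units below the hippocampus (unadjusted p = 0.0337, adjusted p = 0.999 from limma). The nucleus, lowest in Hpcal4, also had the lowest summed signal of the 8 principal neuron markers measured of 9, with log2 values of 7.92 and 7.18 against 10.95 to 11.56 on the other arrays. Its summed signal of the 12 GABAergic markers measured of 14 was lowest too, at 10.28 and 9.86 against 11.96 to 12.48. The part of either cell class in the Hpcal4 difference was not tested.

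Hpcal1, the close relative of hippocalcin, had another order, with the cortex highest, the nucleus between and the hippocampus lowest. It read 7.77 and 7.72 in nucleus, 8.43 and 8.34 in cortex and 7.23 and 7.22 in hippocampus of mice 355 and 511. The regions did not overlap, and the largest difference between the mice within a region was 0.09 log2 units. The cortex was 2.30-fold and 2.18-fold higher than the hippocampus (log2 difference 1.16, SE 0.18, unadjusted p = 0.00164, adjusted p = 0.980 from limma). The nucleus was 1.58-fold and 1.54-fold lower than the cortex (log2 difference -0.64, SE 0.18, unadjusted p = 0.0181, adjusted p = 0.565 from limma) and 1.45-fold and 1.42-fold higher than the hippocampus (log2 difference 0.52, SE 0.18, unadjusted p = 0.0371, adjusted p = 0.492 from limma). Oligodendrocyte markers were lowest in the hippocampus too, with log2 summed signals of 11.99 and 11.90 in nucleus, 11.72 and 11.44 in cortex and 9.66 and 10.22 in hippocampus over 7 of 8 genes, and their part was not tested.

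Hpca encodes hippocalcin, the sensor named for its abundance in hippocampal principal cells, where it takes part in the slow afterhyperpolarization. Its signal was 4.73 and 5.01 in nucleus of mice 355 and 511, 5.06 and 6.04 in cortex and 5.19 and 5.20 in hippocampus. The nucleus was below the other regions in both mice, but by no more than 0.47 log2 units against the hippocampus (mean -0.33, 95% interval -1.09 to 0.43, adjusted p = 0.789 from limma). Against the cortex the log2 difference was -0.34 in mouse 355 and -1.03 in mouse 511 (adjusted p = 0.666 from limma). The hippocampus mean of 5.20 was below the cortex mean of 5.55, and how well the 1 probe set reads Hpca was not tested. The highest array was the cortex of mouse 511, the array with the highest striatal sum of 11.49, and Hpca is also expressed in striatal projection neurons. Their part in the Hpca signal was not tested.

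Vsnl1, which encodes a visinin-like sensor found in most neurons and released into the cerebrospinal fluid on neuronal injury, varied least. It read 11.43 and 11.10 in nucleus, 11.47 and 11.39 in cortex and 11.12 and 11.27 in hippocampus. All 6 arrays lay within 0.37 log2 units. The log2 difference was -0.17 between nucleus and cortex (95% interval -0.72 to 0.38) and 0.07 between nucleus and hippocampus (95% interval -0.48 to 0.62), both smaller than the difference of 0.33 between the mice in the nucleus.

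**Figure D3:**
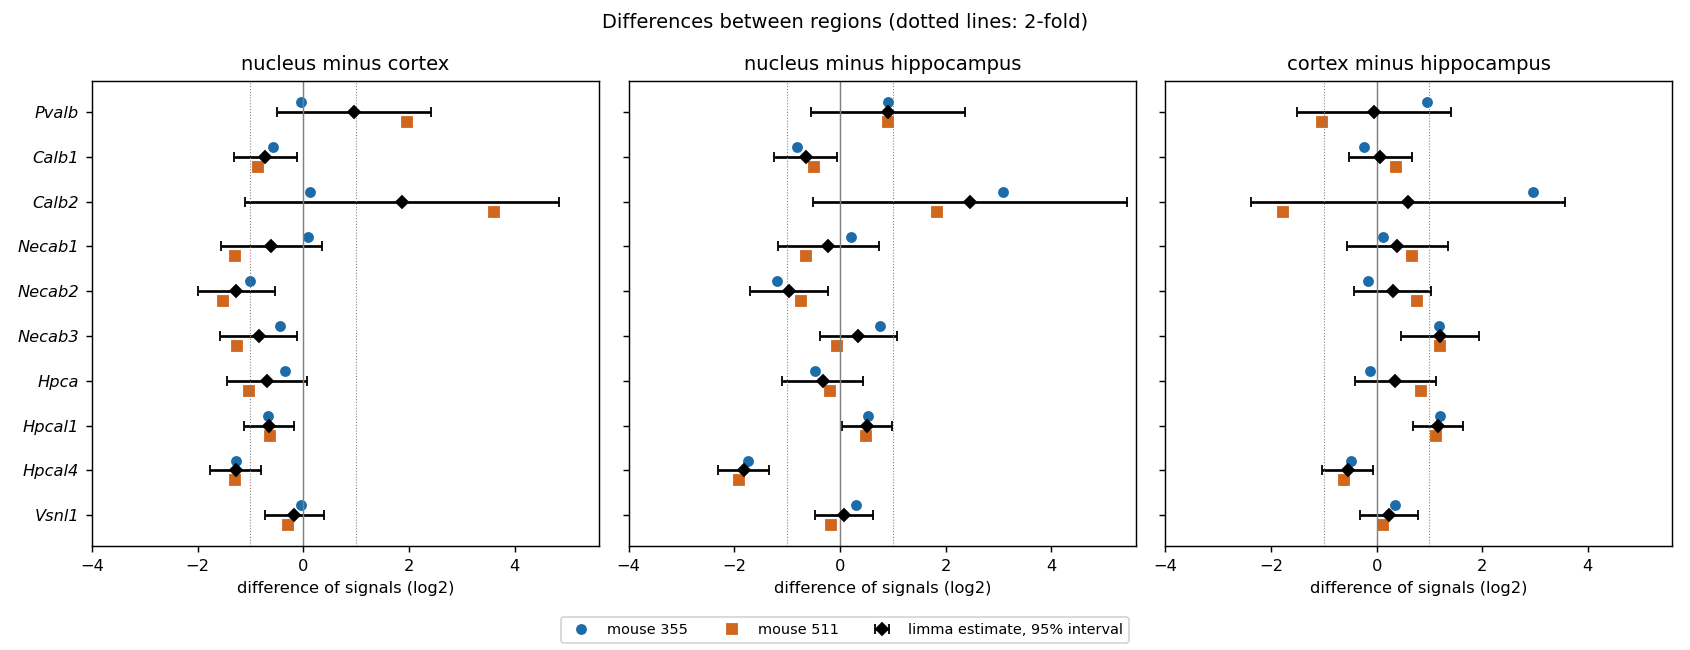
Differences of log2 RMA signal between regions for the 10 genes, with circles for mouse 355, squares for mouse 511, and diamonds with bars for the limma estimate and its 95% interval. Dotted lines mark 2-fold. Hpcal4 lay beyond 2-fold below 0 in both mice in both panels of the nucleus, whereas the mice lay on both sides of 0 for Pvalb between nucleus and cortex.

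Counted over the family, adjusted p-values under 0.05 were reached by 0 of the 10 genes in each of the 3 comparisons. Of all 41345 probe sets, 0% passed between nucleus and cortex, 0.00242% between nucleus and hippocampus and 0% between cortex and hippocampus. At an unadjusted p under 0.05, 5 genes were lower in the nucleus than in the cortex (Calb1, Necab2, Necab3, Hpcal1 and Hpcal4), against 4.12% of all probe sets, and 0 were higher, against 3.77%. With the cortex of mouse 511 or the nucleus of mouse 511 left out, the 5 became 2, and without the cortex of mouse 355 the 0 became 2. Between nucleus and hippocampus 3 genes were lower (Calb1, Necab2 and Hpcal4), against 4.76%, and 1 was higher (Hpcal1), against 4.79%. The 3 became 1 without the hippocampus of mouse 355 or either nucleus array, and the 1 became 0 without the hippocampus or the nucleus of mouse 355 and with arrays centred on their medians, and 2 without either cortex array. Between cortex and hippocampus 2 were higher in the cortex (Necab3 and Hpcal1), against 2.38%, and 1 was lower (Hpcal4), against 2.36%. The 2 became 1 without the hippocampus of mouse 355, and 3 without the cortex of mouse 511. The 1 became 2 without the cortex of mouse 355 and 0 without any 1 of the other 5 arrays.

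The study called a gene enriched where the nucleus was 2-fold above both other regions in the mice. Applied here to all 4 within-mouse comparisons, and also downward and between cortex and hippocampus, which the study did not do, the rule was met by 0 of the 10 genes upward, against 0.244% of all probe sets, and by Hpcal4 alone downward, against 0.472%. Between cortex and hippocampus, Necab3 and Hpcal1 were at least 2-fold higher in the cortex in both mice, against 0.382% of all probe sets, and 0 were lower, against 0.401%. At any size, 4 genes were lower in the nucleus in all 4 comparisons (Calb1, Necab2, Hpca and Hpcal4), against 13.1% of all probe sets. Calb2 was the 1 gene higher in all 4, against 16.5%.

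The median log2 difference of the 10 genes was -0.66 between nucleus and cortex, -0.07 between nucleus and hippocampus and 0.33 between cortex and hippocampus. Over all probe sets the medians were 0.03, 0.04 and 0.02. Between nucleus and cortex 8 of the 10 genes were below 0, between nucleus and hippocampus 5, and between cortex and hippocampus 2. The comparisons share arrays, so their counts do not add up as separate evidence.

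The mice differed by at least 2-fold in the cortex for Pvalb, Calb2 and Necab1, against 6.22% of all probe sets. Calb2 alone did so in the nucleus, against 8.62%, and in the hippocampus, against 5.03%. For Pvalb and Calb2 the cortex of mouse 355 was higher, and for Necab1 that of mouse 511. A difference between regions that depends on the mouse cannot be tested with 1 array per region and mouse.

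The genes whose 6 signals, each centred on its own mean, were nearest to those of Pvalb were Cda, Pygm and Gpld1, at root mean square distances of 0.283, 0.287 and 0.290 log2 units among 22170 genes. Pvalb itself spread by 0.782 on that measure. Nearest to Calb1, which spread by 0.377, were Gm1965, Ypel1 and Arhgef2 at 0.0599, 0.0712 and 0.0753. For Calb2, with a spread of 1.47, the nearest genes were Pcbd1, Klhdc8a and Sgpp2 at 0.610, 0.638 and 0.668. Nearest to Hpca, with a spread of 0.406, were Klf8, Eef1akmt1 and Smok4a at 0.0862, 0.0998 and 0.102. These distances rest on 6 arrays from the same mice and describe likeness over those arrays only.

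Several of the genes share a chromosome. In the RefSeq gene order, Necab1 and Calb1 lie on chromosome 4 with 9 genes between them, 1 of which codes for a protein. On chromosome 4 also lie Hpcal4 and Hpca, with 166 genes between them. Calb2 and Necab2 share chromosome 8 with 149 genes between, and Vsnl1 and Hpcal1 share chromosome 12 with 93 between. The neighbors Necab1 and Calb1 differed in pattern, since Calb1 was lower in the nucleus of both mice while Necab1 was not in mouse 355.

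Beyond the 10 genes, the other calcium-handling genes with a single-symbol probe set were counted by group, and in limma 0 genes of any of these groups had an adjusted p under 0.05 against the cortex or the hippocampus. Of 19 measured neuronal sensors and calmodulin-like genes (22 listed), 3 were lower in the nucleus than in the cortex at an unadjusted p under 0.05 (Ncald, Kcnip2 and Caln1) and 3 were lower than in the hippocampus (Kcnip2, Cabp7 and Caln1), with medians of -0.11 and -0.06. Of all probe sets, 4.12% were lower than in the cortex and 4.76% lower than in the hippocampus by that threshold, and 3.77% and 4.79% were higher. Kcnip2, which sets the gating of A-type potassium channels, read 3.75 and 4.99 in nucleus, 6.20 and 7.01 in cortex and 6.03 and 6.05 in hippocampus, at least 2-fold lower in all 4 comparisons. Its log2 difference was -2.24 against the cortex (SE 0.33, adjusted p = 0.362 from limma), while against the hippocampus it was -1.67 (SE 0.33, adjusted p = 0.305 from limma). The other genes named by size were Ncald (-0.79 and -0.50), a neurocalcin, Caln1 (-0.72 and -1.13), and Cabp7 (-0.20 and -1.04), given as log2 differences against cortex and hippocampus.

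The S100 and penta-EF-hand genes, many of them glial or found throughout the body, had medians near those of all probe sets. Of 17 measured (18 listed), 2 were higher in the nucleus than in the cortex at an unadjusted p under 0.05 (S100a16 and Gca) and 4 were higher than in the hippocampus (S100a16, S100b, Sri and Gca), with medians of 0.10 and 0.22 beside 0.03 and 0.04 for all probe sets, of which 3.77% and 4.79% were higher. Gca, encoding grancalcin, read 5.91 and 5.70 in the nucleus and between 4.64 and 5.16 elsewhere, without overlap. S100b, an astrocyte protein, differed by 0.38 from the cortex and 0.98 from the hippocampus, while S100a8 (0.60 and 0.70) and S100a10 (-0.61 and -0.58) reached an unadjusted p under 0.05 in neither. The log2 summed signal of 8 astrocyte markers was 11.44 and 11.67 in the nucleus and at most 11.47 elsewhere. Of 13 measured genes of the endoplasmic reticulum and secretory path (14 listed), 0 reached an unadjusted p under 0.05 in either comparison, with medians of -0.16 and -0.08. The members with the most different signals there were Nucb1 (-0.57 and -0.45), Calr (-0.47 and -0.52), Rcn1 (0.13 and 0.84) and Casq1 (0.07 and 0.69).

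The next group clears calcium from the cytoplasm. Of 14 measured pumps, exchangers and uniporter genes (15 listed), 4 were lower than in the cortex at an unadjusted p under 0.05 (Atp2b1, Atp2b2, Atp2b4 and Slc8a2), against 4.12% of all probe sets. Against the hippocampus 6 were lower (those 4, Slc24a2 and Slc24a3) and 1 was higher (Slc8a3), against 4.76% and 4.79%, and the medians were -0.28 and -0.57. Slc8a2, a sodium-calcium exchanger of neurons, read 5.17 and 4.78 in nucleus, 6.55 and 7.30 in cortex and 7.02 and 7.65 in hippocampus. Its log2 differences were -1.95 (SE 0.34, adjusted p = 0.415 from limma) for the cortex and -2.36 (SE 0.34, adjusted p = 0.229 from limma) for the hippocampus. The plasma membrane pump genes Atp2b4 (-2.30 and -2.01) and Atp2b1 (-1.13 and -1.65) and the exchanger gene Slc24a4 (-0.81 and -0.59) were the others named by size. In 2 genes of this group the nucleus was at least 2-fold lower in all 4 comparisons, against 0.472% of all probe sets. In the same comparisons the principal neuron markers had medians of -2.84 and -3.19 and the GABAergic markers -1.98 and -1.46, and the part of these cells was not tested.

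Calmodulin targets had the lowest median of these groups against the cortex, at -0.92, with -0.47 against the hippocampus. Of 18 measured (20 listed), 10 were lower than in the cortex at an unadjusted p under 0.05 and 0 were higher, against 4.12% and 3.77% of all probe sets, while 8 were lower than in the hippocampus and 1, Rcan2, was higher, against 4.76% and 4.79%. Itpka, an inositol trisphosphate kinase of dendritic spines, read 4.15 and 4.46 in nucleus, 6.80 and 7.80 in cortex and 8.19 and 7.73 in hippocampus. Its log2 differences were -2.99 (SE 0.38, adjusted p = 0.310 from limma) and -3.66 (SE 0.38, adjusted p = 0.161 from limma). Nrgn, a calmodulin-binding protein of principal neurons (-2.51 and -2.67), Camkv (-1.81 and -2.02) and Camk2a, the alpha subunit of the main synaptic calcium kinase (-1.78 and -1.99), followed. These 3 genes and Itpka are rich in forebrain principal neurons, whose summed markers were lowest in the nucleus as given above, and that part was not tested. In 5 genes of this group the nucleus was at least 2-fold lower in all 4 comparisons, against 0.472% of all probe sets.

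Of the 16 measured genes shared by parvalbumin neurons (19 listed), 1 was lower in the nucleus than in the cortex at an unadjusted p under 0.05 (Kcna1) and 0 were higher, against 4.12% and 3.77% of all probe sets, with a median of -0.03. Against the hippocampus 4 were higher (Scn1a, Scn4b, Syt2 and Vamp1) and 2 were lower (Kcnc2 and Cplx1), against 4.79% and 4.76%, with a median of 0.32. Vamp1 differed by 2.27 from the hippocampus (SE 0.43, adjusted p = 0.286 from limma) and Syt2, the fast calcium sensor of release, by 1.48 (SE 0.33, adjusted p = 0.329 from limma). Against the cortex the differences were 0.74 and 0.67. Scn1a, a sodium channel of fast-firing cells, differed by 0.77 from the cortex and 0.88 from the hippocampus, and Cplx1, a complexin, by -0.80 and -1.02.

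**Figure D4:**
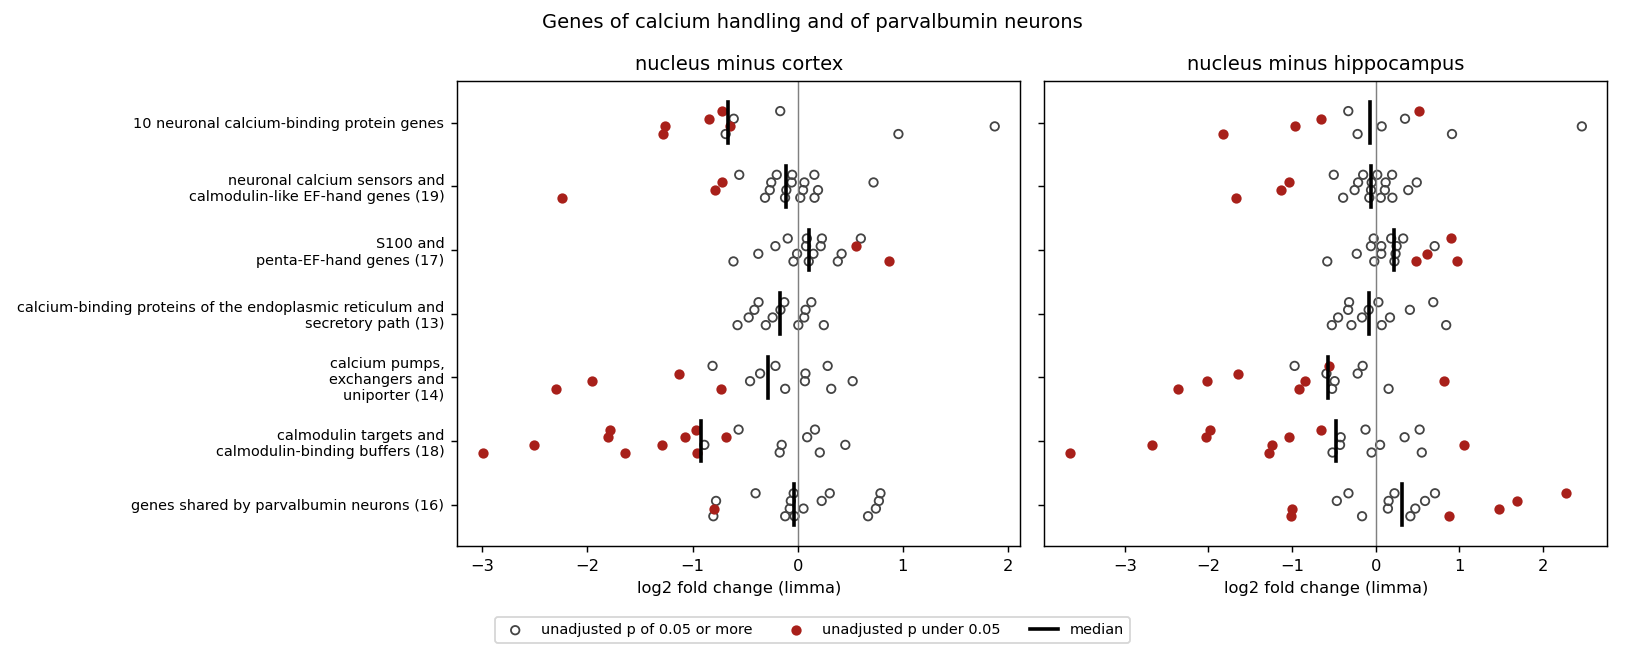
Log2 fold change from limma for each of the 10 genes and for the genes of 6 lists, left for nucleus minus cortex and right for nucleus minus hippocampus, with 1 point per gene, filled where the unadjusted p was under 0.05, and a black line at the median. The calmodulin targets had the lowest median against the cortex, at -0.92, and the S100 and penta-EF-hand genes had medians of 0.10 and 0.22.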

How the data were processed

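RNA of 3 laser-captured regions of 2 mice was amplified with the NuGEN Ovation Pico WTA system and hybridized to 6 arrays. The deposited values are log2 signals. The authors used the RMA routine of Affymetrix Expression Console 1.2.1.20 to make them. The submitters' processing notes also name R 2.14.2, limma and Partek. The genome build and annotation behind the probe sets were not given in the sources used here. Array medians lay between 3.54 and 3.68, and all 41345 probe sets were fitted without a filter or a pseudocount. Gene symbols came from the platform annotation (23521 probe sets with 1 symbol, 1820 with several, 16004 with none), and no coordinates of probe sets were used.

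Regions were compared with limma 3.58.1 in R 4.3.3 with mouse as a fixed block, leaving 2 residual degrees of freedom and a prior of 2.77, and the Benjamini-Hochberg adjustment ran over all probe sets at a threshold of 0.05. The block follows from the design, since the 3 regions come from the same animals. The differences between the mice correlated over probe sets at 0.0794 (nucleus with cortex), 0.0587 (nucleus with hippocampus) and 0.0603 (cortex with hippocampus). The p-values rest on how far the differences between regions disagree between 2 mice, moderated by a prior taken from all probe sets. A difference between the mice that all regions share does not enter them. The number of arrays limits the precision, and an exact two-sided sign-flip test over the mice cannot go below 0.5. A summed list signal is the log2 of the sum of its genes' linear signals.

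The 10 genes, the lists and the tests were chosen with earlier results of these data known. All 10 genes were named, with the 4 genes of each calcium-handling list of largest mean nucleus difference and the 3 genes nearest in pattern to Pvalb, Calb1, Calb2 and Hpca. Marker genes of other cells and genes inside small counts were named beyond that rule, after their values were seen. Alternatives were each array left out, a random block or no block, median centring, cyclic loess, probe sets of 1 symbol, probe sets above the median, an intensity trend, folds of 1.5 and 3, and each mouse alone. Scripts were tested on simulated data. Tables and figures used Python 3.11.15, numpy 2.4.6, pandas 2.3.3 and matplotlib 3.10.9. Images and qRT-PCR were not analysed here.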

Additional observations from a re-analysis of the deposited data

Results flagged for a closer look

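Of the 30 comparisons of a member gene between regions, the mice went opposite ways in 10. The share of all probe sets that did so was not counted. With 1 array per region and mouse these differences between the mice were not tested. Each value below is the log2 difference of the regions in mouse 511 minus that in mouse 355.

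Pvalb had 2.01 for nucleus minus cortex and -1.997 for cortex minus hippocampus, both of which hold its low cortex array of mouse 511. Calb2 had -4.74 for cortex minus hippocampus, the largest of the 10 values in size. For the same regions the value was 0.61 for Calb1, 0.94 for Necab2 and 0.97 for Hpca. Necab1 had -1.39 for nucleus minus cortex and -0.84 for nucleus minus hippocampus. Necab3 had -0.81 and Vsnl1 -0.47 for nucleus minus hippocampus. In the cortex the mice also differed in Drd1 (3.79 and 8.33) and Neurod6 (5.27 and 9.28), and the part of those cells in these values was not tested.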

How the results depend on the processing

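The 10 genes were refitted under 13 alternatives, which gave 390 log2 differences. Of these, 373 kept their direction and their side of the threshold, 17 changed sign and 0 newly passed. Under every alternative 0 of the 10 genes had an adjusted p under 0.05 in limma, and the smallest was 0.0521, for Hpcal4 between nucleus and hippocampus with probe sets of 1 gene symbol only. Without the replicate block that p was 0.0762 and with mouse as a random block 0.0758, and neither setting of the block changed a count, which stayed at 5 genes lower in the nucleus than in the cortex. Each gene had 1 probe set, so a mean over probe sets could not differ.

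All 17 changes of sign came with an array left out. Over the 6 arrays left out in turn, the log2 difference of nucleus and cortex ran from -0.044 to 1.96 for Pvalb, from -0.19 to 3.93 for Calb2 (both lowest without the cortex of mouse 511) and from -0.35 to 0.015 for Vsnl1. For nucleus and hippocampus it ran from -0.77 to 0.34 for Necab1, from -0.058 to 0.76 for Necab3 and from -0.11 to 0.25 for Vsnl1, set by the nucleus arrays. For cortex and hippocampus it ran from -1.05 to 0.96 for Pvalb, from -0.16 to 0.30 for Calb1, from -1.47 to 2.65 for Calb2, from -0.090 to 0.87 for Necab1, from -0.059 to 0.66 for Necab2 and from -0.059 to 0.77 for Hpca.

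At an unadjusted p under 0.05 and with an array left out, 0 to 2 genes were higher in the nucleus than in the cortex (2 without the cortex of mouse 355) and 2 to 5 were lower. Against the hippocampus 0 to 2 were higher and 1 to 3 lower, and between cortex and hippocampus 1 to 3 were higher and 0 to 2 lower. Hpcal1 was the 1 gene higher against the hippocampus, and this count was 0 with arrays centred on their medians, 0 with probe sets above the median only and 0 with an intensity trend. With probe sets above the median only, 0 genes were lower in the cortex than in the hippocampus. Under the 2-fold rule, an array left out gave 0 to 1 genes higher and 1 to 2 lower in the nucleus, and 0 to 2 lower in the cortex than in the hippocampus. Mouse 511 alone gave 1 gene higher in the nucleus and 2 lower in the cortex than in the hippocampus, and mouse 355 alone gave 2 lower in the nucleus. A fold of 1.5 gave 2 lower in the nucleus, and a fold of 3 gave 0. A fold of 3 also gave 0 genes higher in the cortex than in the hippocampus, against 2 at 2-fold. The cause of these changes was not tested, apart from the smaller number of arrays or probe sets that the settings themselves bring.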
